A study of Mus musculus with 6 samples.

Results

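The miR-181 family was followed through 6 small RNA libraries of mouse skin fibroblasts. Its 8 members are the mature arms mmu-miR-181a-5p, mmu-miR-181b-5p, mmu-miR-181c-5p, mmu-miR-181d-5p, mmu-miR-181a-1-3p, mmu-miR-181b-1-3p, mmu-miR-181a-2-3p and mmu-miR-181c-3p (below without the species prefix), taken by name from the 1907 mature miRNAs counted in each library. The cells were primary dermal fibroblasts of newborn mice on a mixed background of 50% C57Bl/6 and 50% FVB/N, grown for 6 days and harvested at passage 1. In the caNrf2 group (genotype Col1a2Cre-caNrf2, 3 mice) a Cre recombinase driven in fibroblasts by Col1a2 sequences switched on a constitutively active mutant of Nrf2, the transcription factor of antioxidant and detoxification genes. The ctrl group (genotype Col1a2Cre-wt, 3 mice) carried the same Cre without the mutant, so by genotype all 6 cultures carried Cre. Nrf2 is not an miRNA and the counts give no check of the transgene.

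A hairpin precursor is cut into a 5p and a 3p arm, and the arm that is kept guides Argonaute to messenger RNAs that pair with its seed, bases 2 to 8. The miR-181 family is best known from lymphocytes, where miR-181a sets the sensitivity of T cell receptor signalling by repressing phosphatases, and from endothelium, where miR-181b restrains NF-kappaB signalling. In dermal fibroblasts miR-181a has been reported to rise with senescence. The family is encoded by 3 pairs of precursors, and the 5p arms of miR-181a and miR-181b can each come from either of the first 2 pairs.

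The mature sequences show why the 5p arms are read as 1 seed family and why the 3p arms can tell precursors apart. All 8 members matched RefSeq entries (build GRCm38.p6), from which the sequences below are printed 5′ to 3′ with the seed in capitals.
mmu-miR-181a-5p: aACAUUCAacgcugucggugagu
mmu-miR-181b-5p: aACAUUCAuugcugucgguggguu
mmu-miR-181c-5p: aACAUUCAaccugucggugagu
mmu-miR-181d-5p: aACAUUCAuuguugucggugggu
mmu-miR-181a-1-3p: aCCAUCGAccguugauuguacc
mmu-miR-181a-2-3p: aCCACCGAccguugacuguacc
mmu-miR-181c-3p: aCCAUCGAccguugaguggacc
mmu-miR-181b-1-3p: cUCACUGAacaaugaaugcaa

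The 4 5p arms shared the seed ACAUUCA, and no other listed miRNA with a RefSeq sequence (1623 of 1907) carried it. They formed 2 close pairs outside the seed. miR-181a-5p and miR-181c-5p were 1 edit apart (a substitution, insertion or deletion of 1 base), miR-181b-5p and miR-181d-5p were 2 edits apart, and arms of different pairs were 4 or 5 edits apart. Each close pair joined an arm that can come from chromosome 1 or 2 with an arm from chromosome 8. Among the 3p arms, miR-181a-1-3p and miR-181c-3p shared a seed and differed by 2 edits, and miR-181a-1-3p and miR-181a-2-3p also differed by 2 edits, 1 of them inside the seed. How reads that fit several of these sequences were assigned is not stated here, so the split of counts within a close pair is uncertain to that extent.

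The precursors lie in 3 places in mm10 (GENCODE M21). Mir181a-1 (chromosome 1, 137966455 to 137966541, plus strand) and Mir181b-1 (137966639 to 137966718) are 97 bases apart inside an exon of the long noncoding RNA A430106G13Rik. Mir181a-2 (chromosome 2, 38852735 to 38852810, plus strand) and Mir181b-2 (38853830 to 38853918) are 1019 bases apart and lie opposite to an intron of Nr6a1, a nuclear receptor gene on the other strand. Mir181c (chromosome 8, 84178873 to 84178961, minus strand) and Mir181d (84178716 to 84178787) are 85 bases apart within an intron of Nanos3, a germ cell gene annotated on the same strand. The hairpins of Mir181a-1 and Mir181a-2 are shown because the results on precursors turn on them. Their mature arms are in capitals, the 5p arm first, and their 5p arms are identical while their 3p arms are not.
Mir181a-1: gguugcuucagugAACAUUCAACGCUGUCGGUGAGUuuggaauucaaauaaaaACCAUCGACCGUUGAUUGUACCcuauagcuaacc
Mir181a-2: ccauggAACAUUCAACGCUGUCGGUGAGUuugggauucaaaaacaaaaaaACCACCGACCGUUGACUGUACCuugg

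Library totals lay between 10443268 and 28237159 counts, and each member had counts in all 6 libraries. The ranges of the fibroblast list of 6 miRNAs, summed, were 379569 to 387354 CPM (read counts scaled to a common library size by the TMM method) in controls and 425517 to 462352 CPM in caNrf2 libraries. Of its 6 members miR-22-3p was called higher and miR-199a-5p lower, beside 14.1% and 11.6% of all tested miRNAs. miR-22-3p alone had 178081 ± 2354 CPM in controls and 221357 ± 7086 CPM in caNrf2 libraries. Its call held in 6 of 12 alternative fits (edgeR, or DESeq2, adjusted p up to 0.115). The 5 leukocyte miRNAs summed to 34.7 to 67.2 CPM in controls and 157 to 233 CPM in caNrf2 libraries, and 4 of the 5 were called higher, where 14.1% of all tested miRNAs were. All 3 tested muscle and all 3 tested neural miRNAs were also called higher, as was 1 of 3 erythroid miRNAs. The muscle list also holds miR-1a-3p and the neural list miR-124-3p, which had too few counts to be tested. edgeR called 0 of 2 endothelial and 0 of 6 epithelial miRNAs in either direction, beside 25.7% of all tested miRNAs. The epithelial miRNAs summed to 1011 to 1820 CPM in controls and 1573 to 2074 CPM in caNrf2 libraries. Their median log2 fold change was 0.36. At an unadjusted p under 0.05, and also by DESeq2, 0 endothelial and 1 epithelial miRNA passed. DESeq2 called 92 of all miRNAs higher and 96 lower, while the share of all miRNAs at the unadjusted limit is not given here. The epithelial miRNA was miR-205-5p, at 1013 ± 333 CPM in controls and 1475 ± 151 CPM in caNrf2 libraries (edgeR adjusted p = 0.0590). It passed in 5 of 13 alternative fits. All 3 erythroid miRNAs passed the unadjusted limit, 1 of them in the lower direction. This was miR-144-3p, at 0.92 ± 0.36 CPM in controls and 0.46 ± 0.17 CPM in caNrf2 libraries (edgeR adjusted p = 0.0873). Of the neural calls, that of miR-9-5p was lost in 4 of the 6 fits without 1 library (edgeR adjusted p up to 0.0687) and that of miR-338-3p in 3 (up to 0.0818). None of these markers was at 0 in every library. Their part in the results below was not tested. In bulk RNA a change in the number of cells of a type and a change in RNA per cell cannot be told apart.

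In caNrf2 fibroblasts miR-181b-5p and miR-181a-1-3p were lower than in controls and miR-181c-5p was higher. miR-181b-5p fell 1.43-fold, miR-181a-1-3p fell 1.40-fold and miR-181c-5p rose 1.30-fold. The most abundant arm, miR-181a-5p, did not pass the test, nor did miR-181d-5p, miR-181b-1-3p, miR-181a-2-3p and miR-181c-3p. Of the 8 members, all of which had enough counts to be tested, 1 was therefore called higher, beside 14.1% of all 697 tested miRNAs, and 2 lower, beside 11.6%. With 25.7% of all tested miRNAs called in either direction, and 32.6% of the 371 with a mean of at least 10 CPM, as all 8 members had, the number of calls in the family was near the background. Their median log2 fold change was -0.18, and that of all tested miRNAs was 0.033. A call is an adjusted p under 0.05 in edgeR's quasi-likelihood test with Benjamini-Hochberg adjustment over all tested miRNAs, and values are means ± SD over 3 libraries per group.

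**Figure D1:**
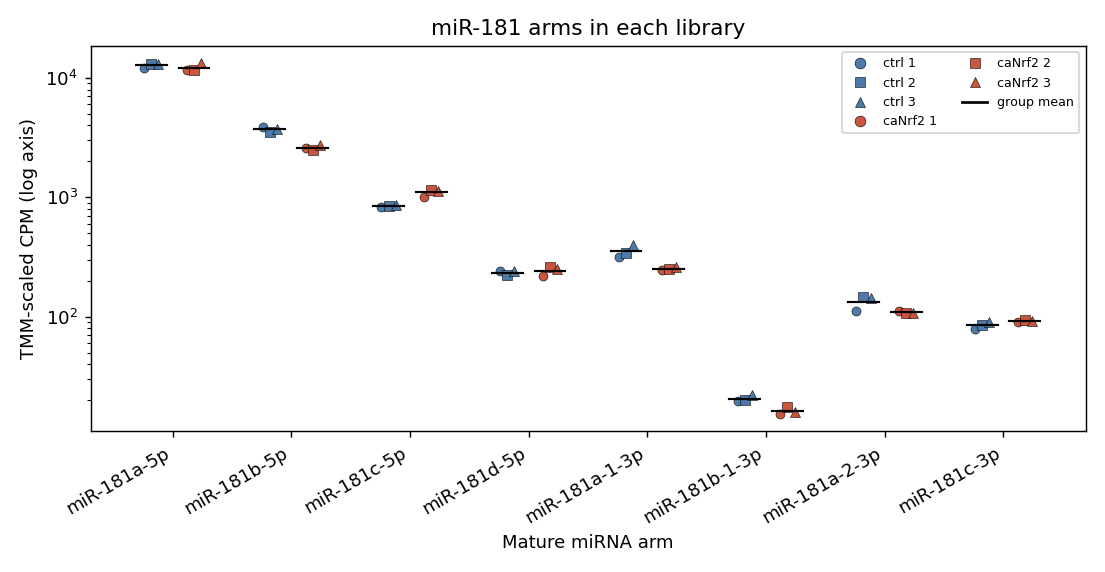
Level of each of the 8 miR-181 arms in every library (TMM-scaled CPM on a log axis); symbols are libraries, blue for ctrl and red for caNrf2, and black bars are group means. The caNrf2 libraries lie below all controls for miR-181b-5p, miR-181a-1-3p and miR-181b-1-3p and above them for miR-181c-5p.

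miR-181a-5p was the main arm of the family and ranked 13th of the 1907 listed miRNAs by mean level. It was counted at 12017, 13155 and 13040 CPM in control libraries 1, 2 and 3 and at 11727, 11585 and 13224 CPM in caNrf2 libraries 1, 2 and 3. The groups overlapped, and caNrf2 library 3 held the highest value of all. The means were 12737 ± 626 and 12179 ± 908 CPM. Their log2 fold change, given here and below ± SE, was -0.065 ± 0.09 (edgeR adjusted p = 0.618), and -0.136 without caNrf2 library 3 or -0.113 without control library 1.

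miR-181b-5p, the arm known for restraining NF-kappaB signalling in endothelium, had 3896, 3511 and 3751 CPM in the controls and 2588, 2505 and 2724 CPM in the caNrf2 libraries. Every caNrf2 library was below every control. The mean fell from 3719 ± 195 to 2606 ± 111 CPM (log2 fold change -0.51 ± 0.08, edgeR adjusted p = 9.45e-04).

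miR-181c-5p, which comes from chromosome 8 and is 1 edit from miR-181a-5p, had 833, 849 and 859 CPM in the controls and 1015, 1156 and 1131 CPM in the caNrf2 libraries. The groups did not overlap, and here the caNrf2 libraries were the higher ones. The mean rose from 847 ± 12.8 to 1101 ± 75.2 CPM (log2 fold change 0.38 ± 0.08, edgeR adjusted p = 0.00465). Its cluster neighbour miR-181d-5p had 239, 223 and 239 CPM in the controls and 219, 260 and 249.7 CPM in the caNrf2 libraries. For that arm the groups overlapped, caNrf2 library 1 being the lowest of all 6, and the log2 fold change was 0.055 ± 0.09 (edgeR adjusted p = 0.695). It lay between -0.020 and 0.117 without any 1 library, the bounds being those without caNrf2 library 2 and without caNrf2 library 1.

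The 3p arms are specific to 1 precursor each. miR-181a-1-3p, from the chromosome 1 pair, had 317, 344 and 396 CPM in the controls and 246, 251 and 259 CPM in the caNrf2 libraries. The groups did not overlap, and the mean fell from 352 ± 39.9 to 252 ± 6.62 CPM (log2 fold change -0.48 ± 0.09, edgeR adjusted p = 0.00397). The 3p arm of its neighbour, miR-181b-1-3p, had 19.6, 19.96 and 22.2 CPM in the controls and 15.3, 17.5 and 15.9 CPM in the caNrf2 libraries. These ranges did not overlap either, but the log2 fold change of -0.34 ± 0.14 was not called by edgeR (adjusted p = 0.0964). With DESeq2 in place of edgeR it was called lower (adjusted p = 0.0436).

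From the chromosome 2 pair, miR-181a-2-3p had 111, 146 and 144 CPM in the controls and 112, 107 and 107 CPM in the caNrf2 libraries. Control library 1 lay within the caNrf2 range, and the other controls lay above it. The log2 fold change was -0.30 ± 0.12 (edgeR adjusted p = 0.0959). It was called lower without control library 1 (-0.42, edgeR adjusted p = 0.0145) and in DESeq2 (-0.34, adjusted p = 0.0462). DESeq2 thus called 4 members lower, beside 13.8% of all miRNAs it tested. miR-181c-3p, from chromosome 8, had 79.0, 85.7 and 90.9 CPM in the controls and 89.8, 93.6 and 92.0 CPM in the caNrf2 libraries, a log2 fold change of 0.107 ± 0.10 with overlapping groups (edgeR adjusted p = 0.496). Without control library 1 it was 0.048, and without caNrf2 library 2 it was 0.071.

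In all, the group ranges did not overlap for 4 of the 8 members, 1 of them higher and 3 lower in caNrf2 cells, beside 41.6% of all tested miRNAs (23.7% higher and 17.9% lower). The remaining arms of the family are the 3p arms of Mir181b-2 and Mir181d, which are not among the 8 members. Summed over the 3 libraries of a group, miR-181b-2-3p had 30 counts in controls and 36 in caNrf2 cells (edgeR adjusted p = 0.695), and miR-181d-3p had 19 and 12 counts and was not tested. A count of 3, the limit that a count of 0 allows, corresponded to 0.107 to 0.289 CPM.

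**Figure D2:**
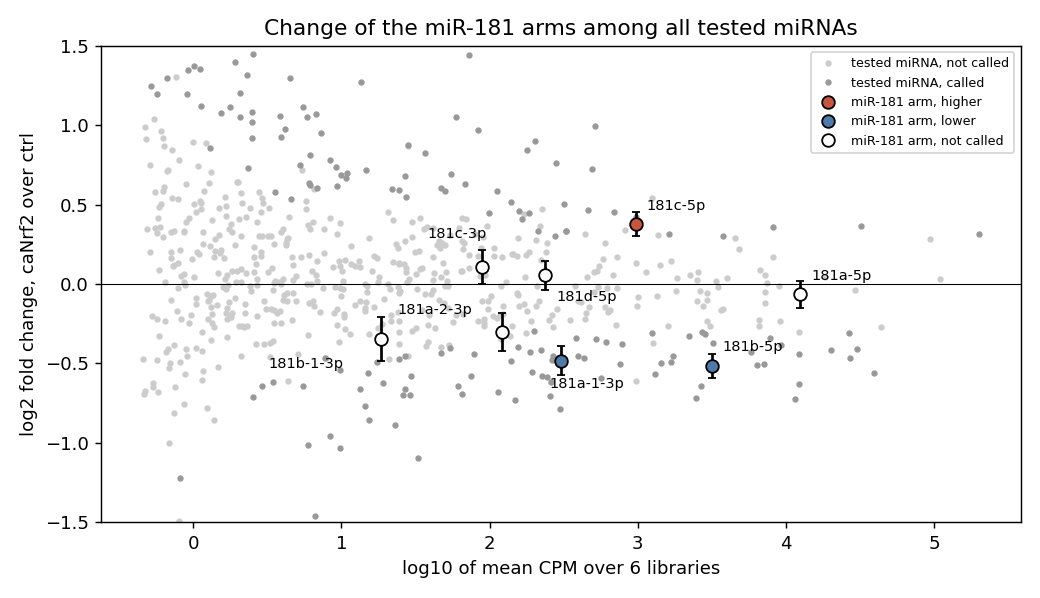
log2 fold change (caNrf2 over ctrl) against the log10 of mean CPM for all tested miRNAs in grey and the 8 miR-181 arms as circles with SE bars, filled red or blue where called higher or lower; 18 tested miRNAs lie beyond the axis limits of ±1.5. The arms lie between -0.51 (miR-181b-5p) and 0.38 (miR-181c-5p), within the cloud of other miRNAs.

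The order of the arms by level was nearly the same in both groups. In controls it ran from miR-181a-5p through miR-181b-5p, miR-181c-5p, miR-181a-1-3p, miR-181d-5p, miR-181a-2-3p and miR-181c-3p to miR-181b-1-3p, and no neighbours among these overlapped in range. In caNrf2 cells the order of the means was the same, but miR-181a-1-3p (252 CPM) and miR-181d-5p (243 CPM) overlapped. These levels are reads per mature arm with no length scaling, since the arms are 21 to 24 bases long. The control mean of miR-181a-5p was 3.42 times that of miR-181b-5p, and the caNrf2 mean was 4.67 times. miR-181b-5p in turn stood 4.39 times above miR-181c-5p in controls and 2.37 times above it in caNrf2 cells.

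Because the 4 5p arms share a seed, their sum was also examined. The sum was 16986, 17737 and 17889 CPM in the controls and 15549, 15506 and 17329 CPM in the caNrf2 libraries. caNrf2 library 3 lay within the control range. Entered as 1 row in place of the 4 arms, the sum had a log2 fold change of -0.13 ± 0.08, and of -0.182 to -0.105 without any 1 library. The sum was not called (edgeR adjusted p = 0.271, where 25.6% of the miRNAs in that table were called). As a share of all counts it was 1.74% ± 0.045 in controls and 1.62% ± 0.086 in caNrf2 libraries (two-sided exact permutation p = 0.2, with 0.1 the smallest that 3 against 3 libraries allow). The difference of -0.116 points was -0.076 without caNrf2 library 2 and -0.161 without caNrf2 library 3, the other caNrf2 shares then lying below all controls. It was -0.023 (exact permutation p = 0.7) with miR-22-3p, the most abundant miRNA, left out of the total. The 95% Wilson interval of this share in any 1 library reached at most 0.0078 points to either side, which covers counting error only.

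In the make-up of that sum, the shares of 3 of the 4 arms did not overlap between the groups. miR-181b-5p made up 22.9%, 19.8% and 20.97% of the 4 arms in the controls and 16.6%, 16.2% and 15.7% in the caNrf2 libraries. Every caNrf2 library had a smaller share than every control, with means of 21.2% ± 1.59 and 16.2% ± 0.46. miR-181c-5p made up 4.91%, 4.78% and 4.80% in the controls and 6.53%, 7.45% and 6.53% in the caNrf2 libraries. Its share was higher in all 3 caNrf2 libraries than in any control. miR-181a-5p, the bulk of the sum, made up 72.6% ± 1.73 and 75.5% ± 0.80, again without overlap, and miR-181d-5p 1.34% ± 0.075 and 1.51% ± 0.15, with overlap. For the first 3 arms the exact permutation p was 0.1, the smallest possible, and for miR-181d-5p it was 0.2. The 4 shares add up to the whole and are not independent of each other. Of all single tested miRNAs, 41.6% had CPM ranges that did not overlap.

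**Figure D3:**
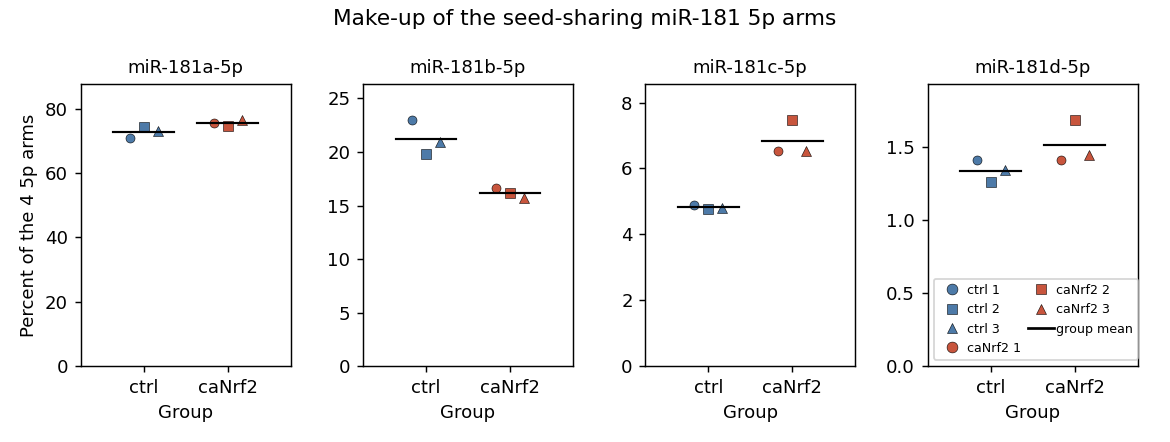
Share of each 5p arm in the sum of the 4 seed-sharing 5p arms, in percent of counts, with 1 panel per arm and axes from 0; symbols are libraries and black bars group means. The share of miR-181b-5p is 15.7% to 16.6% in caNrf2 and 19.8% to 22.9% in control libraries, and that of miR-181c-5p is 6.53% to 7.45% and 4.78% to 4.91%.

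Ratios of counts within a library do not depend on scaling between libraries, and 7 of them were compared between the groups by two-sided exact permutation tests. The ratio of miR-181a-5p to miR-181b-5p was 3.08, 3.75 and 3.48 in the controls and 4.53, 4.62 and 4.85 in the caNrf2 libraries. All 3 caNrf2 ratios were above the controls, a difference of 0.45 on the log2 scale (exact permutation p = 0.1; 0.175 adjusted over the 7 ratios). The ratio of miR-181c-5p to miR-181d-5p, arms of 1 cluster, was 3.48, 3.80 and 3.59 in the controls and 4.64, 4.44 and 4.53 in the caNrf2 libraries. These groups did not overlap, with a difference of 0.32 (exact permutation p = 0.1; adjusted 0.175).

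The 2 precursors of miR-181a were compared through their 3p arms. miR-181a-1-3p made up 74.0%, 70.1% and 73.3% of the miR-181a 3p counts in the controls and 68.7%, 70.2% and 70.7% in the caNrf2 libraries. The ranges overlapped, and in every library most miR-181a 3p counts carried the Mir181a-1 sequence. The 95% Wilson interval of each share reached at most 1.29 points to either side. The ratio of miR-181a-1-3p to miR-181a-2-3p was 2.65 ± 0.27 in controls and 2.32 ± 0.12 in caNrf2 cells, a log2 difference of -0.19 with overlapping groups (exact permutation p = 0.3; adjusted 0.3). Without control library 2 the groups did not overlap and the difference was -0.27. A larger change of the chromosome 1 than of the chromosome 2 precursor was therefore not shown, although only the 3p arm of the former was called. Of the miR-181b 3p counts, 97.2% ± 0.95 in controls and 96.9% ± 0.65 in caNrf2 cells were miR-181b-1-3p, from chromosome 1 (exact permutation p = 0.7). The ratio of miR-181a-1-3p to miR-181b-1-3p, arms of 1 cluster, was 17.0 ± 0.87 and 15.6 ± 1.06 (log2 difference -0.131, and -0.074 without caNrf2 library 2; exact permutation p = 0.2; adjusted 0.233).

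The balance of the 5p and 3p arms was compared in the remaining ratios. Counts of miR-181a-5p were 28.0, 26.9 and 24.2 times those of its 3p arms together in the controls and 32.7, 32.3 and 36.1 times in the caNrf2 libraries. The ratio was higher in every caNrf2 library, by 0.36 on the log2 scale (exact permutation p = 0.1; adjusted 0.175). For miR-181c the 5p to 3p ratio was 10.5, 9.90 and 9.44 in the controls and 11.3, 12.3 and 12.3 in the caNrf2 libraries, also without overlap (log2 difference 0.27; exact permutation p = 0.1; adjusted 0.175). For miR-181b-5p over miR-181b-1-3p the groups overlapped, with 180.8 ± 15.1 and 161 ± 15.6 (log2 difference -0.169; exact permutation p = 0.2; adjusted 0.233). That difference was -0.085 without caNrf2 library 2 and -0.102 without control library 1. Thus 4 of the 7 ratios separated the groups and none could pass 0.05 in this design. All 4 have miR-181a-5p or miR-181c-5p as numerator and are not independent of each other. Of all single tested miRNAs, 41.6% had ranges that did not overlap, and no such share is given for ratios.

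A further 4 ratios were chosen after the values had been seen and are given without a test. The counts of miR-181c-5p were 0.228 ± 0.014 of those of miR-181b-5p in controls and 0.423 ± 0.035 in caNrf2 cells, a change of 1.85-fold in the ratio. For the close pair miR-181d-5p and miR-181b-5p the ratio was 0.0630 ± 0.0013 and 0.0934 ± 0.0098. For miR-181c-5p and miR-181a-5p it was 0.0666 ± 0.0025 and 0.0906 ± 0.0079. Between the 3p arms that share a seed, miR-181c-3p over miR-181a-1-3p, it was 0.243 ± 0.011 and 0.364 ± 0.0087. In each of the 4 the ratio of the chromosome 8 arm to the other arm was higher in all 3 caNrf2 libraries than in any control. These ratios share arms with each other and with those above, so they are not separate observations.

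**Figure D4:**
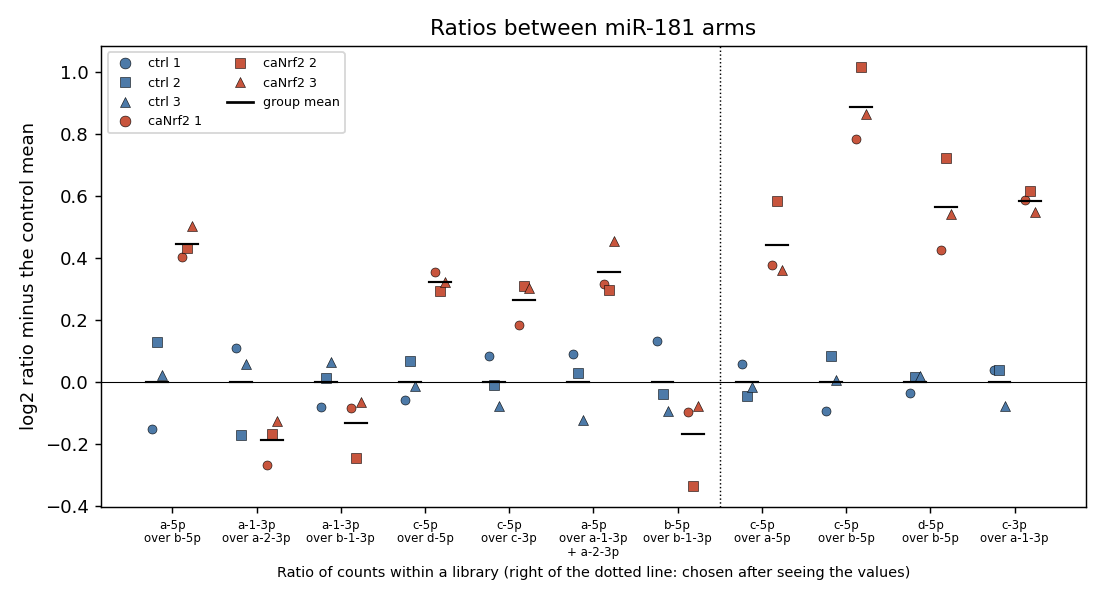
log2 ratios of counts between miR-181 arms within each library, shown as the difference from the mean of the control libraries; symbols are libraries, black bars group means, and the 4 ratios right of the dotted line were chosen after their values were seen. The largest shift is in miR-181c-5p over miR-181b-5p (0.89), while miR-181a-1-3p over miR-181a-2-3p overlaps between the groups.

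The miRNAs whose levels ran most like an arm of the family were found by the root-mean-square difference of log2 CPM, each centred on its own mean, over the 6 libraries, among 363 miRNAs of at least 10 CPM outside the family. Nearest to miR-181a-5p were miR-423-5p, let-7d-3p and miR-151-3p, at 0.069, 0.069 and 0.073, with a median of 0.205 over all 363. Their log2 fold changes were 0.019 ± 0.08, -0.026 ± 0.09 and 0.040 ± 0.08. Nearest to miR-181a-1-3p, the called 3p arm, were miR-199b-5p, miR-199a-5p and miR-411-5p, at 0.043, 0.046 and 0.062, with a median of 0.276. The first 2 are miRNAs of mesenchymal cells and the last belongs to the imprinted Dlk1-Dio3 cluster. Their log2 fold changes were -0.46, -0.51 and -0.44. Since these miRNAs were picked for their pattern over the same 6 libraries, the likeness of their changes to those of the 2 arms is set by the choice and is given as a description.

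miRNAs that share settings with the family were read from the same fit. Of 14 tested miRNAs associated with senescence, the setting in which miR-181a has been reported in dermal fibroblasts, 4 were higher and 1 lower in caNrf2 cells (14.1% and 11.6% over all tested miRNAs), their median log2 fold change being 0.21. The one that fell was miR-152-3p, reported together with miR-181a in senescent dermal fibroblasts, at 306 ± 3.47 and 219 ± 8.27 CPM (edgeR adjusted p = 0.00145). miR-29c-3p, miR-146a-5p and miR-29a-3p were among those that rose, with log2 fold changes of 0.97, 0.88 and 0.36. The miR-29a-3p call was lost without caNrf2 library 2 (edgeR adjusted p = 0.0577) or caNrf2 library 3 (0.0516). That of miR-22-3p, the fourth that rose (edgeR adjusted p = 0.0349), was lost with RLE size factors (0.0703) and without any 1 library other than control library 1 (up to 0.115).

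Of 10 miRNAs known from lymphocyte and other leukocyte development, where the family is best known, 6 were higher and 0 lower by edgeR, beside 14.1% and 11.6% of all tested miRNAs, their median log2 fold change being 0.37. At an unadjusted edgeR p under 0.05, too, 0 of the 10 were lower, though the share of all miRNAs at that limit is not given here. By DESeq2 0 were lower, beside 13.8% of all miRNAs it tested. The 4 with the smallest p were miR-223-3p, miR-142a-5p, miR-142a-3p and miR-146a-5p, with log2 fold changes of 1.90, 1.85, 1.74 and 0.88. Their mean levels in caNrf2 cells were 15.3, 143, 19.4 and 36.5 CPM. The lists overlap. miR-223-3p, both miR-142a arms and miR-150-5p are also among the leukocyte miRNAs above, and miR-146a-5p is also among those of senescence. The counts per list are therefore not separate observations. For miR-150-5p, a miRNA of mature lymphocytes, the levels were 3.10 ± 0.27 and 2.87 ± 0.33 CPM (edgeR adjusted p = 0.693).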

How the data were processed

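The deposited files hold raw counts of reads per mature miRNA, 1 file per library, with no normalization recorded. Per the submitters' processing notes the build was mm10, and the tools listed there are cutadapt, featureCounts, Bowtie, edgeR and CASAVA 1.8. For their settings, the miRNA annotation and the handling of reads that fit several miRNAs, nothing is given in the sources used here.

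Counts were tested over the whole table by glmQLFTest after glmQLFit (edgeR 4.0.16, R 4.3.3), with the group as sole term, TMM scaling and the filterByExpr minimum of 10 counts, and SEs were derived from the F statistic. TMM factors lay between 0.984 and 1.04. Alternatives were DESeq2 1.42.0, RLE factors, library totals, a table without the 5 most abundant miRNAs, other filters, a replicate block and leaving out each library. Ratios used counts plus 0.5. The tests were checked on simulated counts. Libraries of a group differed far beyond sampling noise (lowest chi-square per degree of freedom 117).

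The members and lists were chosen with earlier results of these data known. Named were the members, the other miR-181 arms, the 3 miRNAs nearest to miR-181a-5p and to each called 3p arm, and up to 4 per list by smallest p. miR-150-5p and miR-22-3p were chosen outside this rule, after their values were seen. The untested miR-1a-3p and miR-124-3p were named too. Cell type lists are given as counts.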

Additional observations from a re-analysis of the deposited data

How the results depend on the processing

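miR-181b-5p, miR-181a-1-3p and miR-181c-5p kept their direction and their call in all 13 alternatives (edgeR, or DESeq2, adjusted p up to 0.00558, 0.0232 and 0.0363). miR-181a-5p (-0.136 to -0.044 without any 1 library) and miR-181c-3p (0.048 to 0.156) were called in none. The number of members called lower was 4 with DESeq2, which called 96 of 696 miRNAs lower where edgeR called 81 of 697, and 2 or 3 without any 1 library. That called higher was 1 throughout. The uncalled change of miR-181d-5p was -0.020 without caNrf2 library 2 and up to 0.117 without 1 other library. The uncalled changes of the 3 miRNAs nearest to miR-181a-5p changed sign too. That of miR-423-5p was -0.019 with RLE factors and with DESeq2 and -0.035 to 0.068 without any 1 library, that of let-7d-3p -0.081 to 0.052 and that of miR-151-3p -0.016 to 0.061. The causes were not tested. The group difference in the 5p share of counts was -0.12 points, and -0.161 to -0.076 points without any 1 library. It was -0.023 points with miR-22-3p, the most abundant miRNA, left out of the total (exact permutation p = 0.7). The 7 ratios kept their direction without any 1 library, but that of miR-181b-5p over miR-181b-1-3p ranged from -0.216 to -0.085 and that of miR-181a-1-3p over miR-181b-1-3p from -0.171 to -0.074. Same-numbered libraries come from different mice, and their deviations correlated at 0.18, 0.11 and -0.22. Those of differently numbered libraries correlated at -0.36 to 0.36. The values thus show no pairing by number, but with 3 libraries per group they cannot exclude it. With a replicate block 102 miRNAs were called higher and 87 lower, and the members' calls did not change. Depth limits most the 3p arms of Mir181b-2 and Mir181d, with 12 to 36 counts per group.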
